A study of Mus musculus with 9 samples.

Results

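Glycolysis, the handling of pyruvate and lactate, and the pentose phosphate pathway were followed in microglia through 34 mouse genes. The genes were chosen by symbol from the deposited table of counts, 34 of 45664 symbols, and cover glucose and lactate transporters, the enzymes of glycolysis with their isozymes, the enzymes that set the level of fructose 2,6-bisphosphate, lactate dehydrogenase, subunits and kinases of the pyruvate dehydrogenase complex, the pentose phosphate pathway and the hypoxia factor gene Hif1a. Each of the 34 had over 10 counts in every library and passed the filter on low counts, which kept 13067 genes.

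Microglia, the immune cells that reside in the brain, were sorted from the visual cortex of 9 male mice, adolescents of the inbred strain C57BL/6. The mice had received injections under the skin from postnatal day 4 to day 9, either saline (5 mice, aged 36, 30, 35, 29 and 30 days at collection, saline 1 to 5) or an equal volume of ethanol solution at 1.8 g per kg and injection, 3.6 g per kg and day (4 mice, aged 35, 35, 30 and 30 days, ethanol 1 to 4). Live cells that were positive for CD11b and low for CD45 were collected, and each library came from 1 mouse, so that differences between mice and differences from handling the samples cannot be told apart. Not given in the sources used here is the litter of each mouse.

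Glycolysis splits glucose into pyruvate and yields ATP and NADH without oxygen. Lactate dehydrogenase converts pyruvate and lactate into each other. The pyruvate dehydrogenase complex converts pyruvate to acetyl-CoA inside the mitochondria, and its kinases switch the complex off by phosphorylation. The pentose phosphate pathway branches off at glucose 6-phosphate and makes NADPH and ribose. Microglia are known to take up more glucose and make more lactate when they are activated, a shift in which HIF-1, of which Hif1a encodes the alpha subunit, takes part.

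Libraries held 12816198 to 28859244 counts. Microglial markers summed to 54831 to 64619 CPM (counts as a share of library size, with TMM scaling, which uses the trimmed mean of M values) for 10 genes, while the lists for other cell types each stayed at or below 262 CPM in all libraries. A pair of libraries stood apart. In saline 1 the 9 neuronal markers summed to 2.69 CPM against 21.7 to 56.0 CPM in the other 8 libraries, and the 10 astrocyte markers to 5.43 CPM against 53.7 to 181 CPM. Ethanol 2 was the highest of the 9 libraries for 22.7% of the 13067 genes and the lowest for 25.6%, more than any other library at either end.

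To compare genes with each other, counts were divided by the length of the longest annotated transcript and scaled to the same sum in each library (TPM, a level per transcript length that can be compared between genes). On this scale Ldhb, the heart-type subunit of lactate dehydrogenase, stood first with 1002 ± 93.4 TPM (mean ± SD, n = 9). It was followed by the aldolase gene Aldoa with 589.7 ± 51.7 TPM, the pyruvate kinase gene Pkm with 347 ± 22.0 TPM and the enolase gene Eno1 with 347 ± 17.4 TPM. Taldo1 of the pentose phosphate pathway had 338 ± 22.7 TPM and Ldha, the muscle-type lactate dehydrogenase subunit, 326 ± 24.0 TPM. At the other end were the glucose transporter gene Slc2a3 with 3.64 ± 0.903 TPM and the platelet-type phosphofructokinase gene Pfkp with 0.645 ± 0.310 TPM. Of the 34 genes, 10 lay above the 90th percentile of the 12405 tested genes with a length, and 30 lay above the 50th.

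On this scale the order over the libraries was firm at the ends and loose in the middle, though another length, given below, put Eno1 above Aldoa. Ldhb was above Aldoa, and Aldoa above Pkm, in 9 of 9 libraries with no overlap of the ranges. Pkm was above Eno1 in 5 of 9 libraries and Eno1 above Taldo1 in 7, so those neighbours did not differ beyond their spread. Of the 33 pairs of neighbours in the order, 14 kept 1 order in all libraries and 26 had ranges that overlapped.

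**Figure D1:**
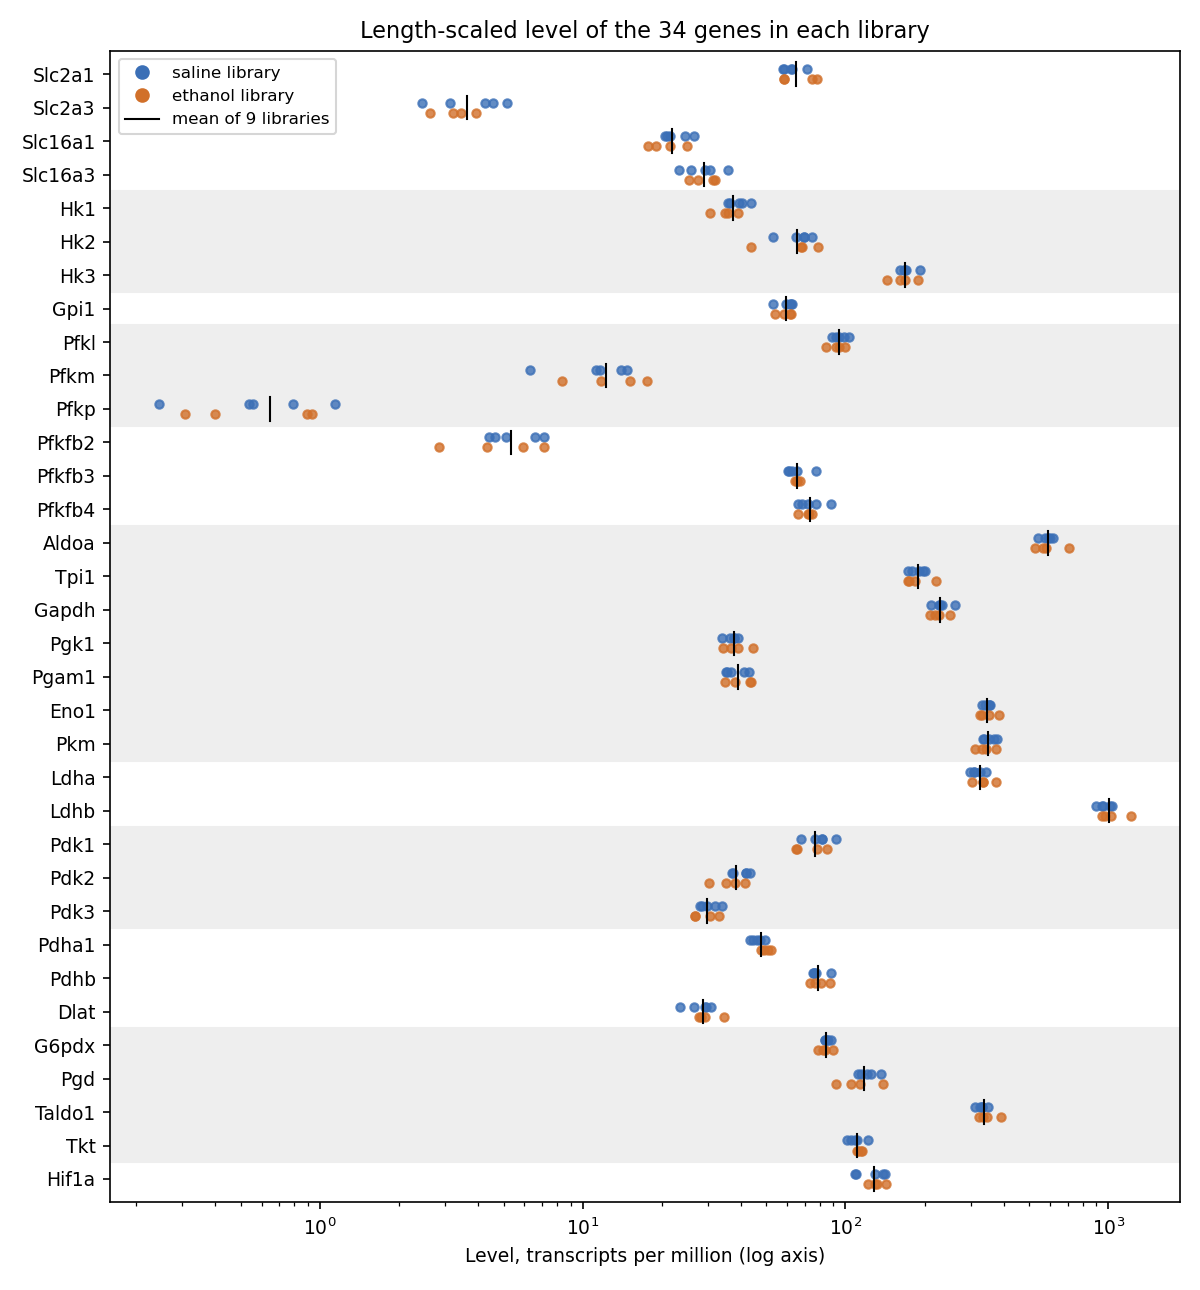
Length-scaled level in TPM (horizontal log axis) of the 34 genes, grouped by role with alternate shading. Each point is 1 library (blue saline, orange ethanol) and the bar is the mean of the 9 libraries. Levels run from 0.645 TPM for Pfkp to 1002 TPM for Ldhb, and saline and ethanol points overlap for every gene.

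Several of these genes have copies elsewhere in the genome that can draw or lose reads. The share of each longest transcript whose stretches of 50 nt occur in no transcript of another gene was 27.8% for Eno1, 32.0% for Pgk1 (phosphoglycerate kinase), 58.5% for Pgam1 (phosphoglycerate mutase) and 65.6% for Pkm. For Gapdh (glyceraldehyde 3-phosphate dehydrogenase) it was 72.2%, with stretches shared by 218 other genes, and for Ldhb 73.0%. The main partners were Eno1b, which holds 70.5% of the stretches of Eno1, and Pgk1-rs7, which holds 67.9% of those of Pgk1. The copies were nearly empty in the table, with 90 counts over all libraries for Eno1b against 45273 for Eno1, and 5 for Pgk1-rs7 against 4445 for Pgk1. Not given in the sources used here is how reads that match several genes were treated.

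Dividing by the unique part of the transcript instead, which assumes that no shared read was counted, moved Eno1 to 1247 TPM and Pgk1 to 117 TPM. Ldhb stood at 1373 TPM and Aldoa at 682 TPM on that scale, so that Eno1 passed Aldoa while Ldhb stayed first. With stretches of 100 nt, Pkm was unique over 90.2% of its length and Ldhb over 91.2%, but Eno1 over 41.0% and Pgk1 over 33.0%. Levels of Eno1, Pgk1, Pgam1 and Gapdh relative to other genes are therefore uncertain, and differences of 1 gene between libraries are not touched by the length. Overlap with a neighbour on the opposite strand adds to this for Pdha1, which shares 603 nt of exon with Map3k15, and for G6pdx (418 nt with Ikbkg). It also does so for Pfkp (748 nt with Pitrm1) and Gpi1 (741 nt with Gm26762). Among overlaps on the same strand were those of Pfkfb2 (1262 nt with Gm29427) and Pfkm (341 nt with Gm26513). Pkm shares 767 nt with Gm49759 on the same strand, a gene that has no row among the deposited counts.

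**Figure D2:**
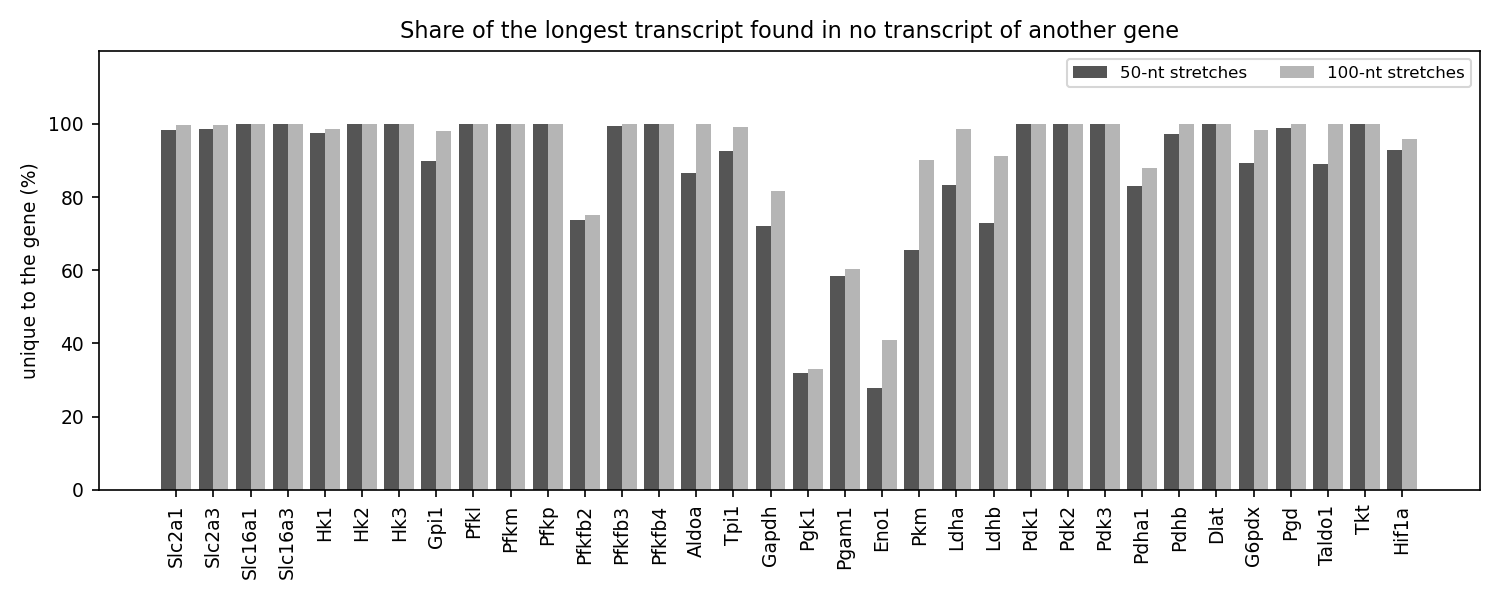
Share of the longest transcript (percent, vertical axis) that occurs in no transcript of another gene, for stretches of 50 nt (dark bars) and 100 nt (light bars), for each of the 34 genes. Pgk1 and Eno1 stay low at both lengths, at 32.0% and 27.8% with 50 nt, whereas Pkm goes from 65.6% to 90.2%.

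Glucose enters cells through facilitative hexose transporters. Slc2a1, which encodes the broadly expressed GLUT1, had a mean of 64.6 ± 7.86 TPM (SD, n = 9), and Slc2a3, the neuronal-type GLUT3, 3.64 TPM. Both were far below Slc2a5, a gene outside the 34 that encodes the fructose transporter GLUT5 and marks microglia in the brain, with 938 ± 98.3 TPM. Slc2a5 made up 85.2 ± 1.13% of the summed level of the hexose transporter family and Slc2a1 5.91 ± 0.838%. Slc2a1 was measured at 75.7, 66.0, 69.6, 82.8 and 65.4 CPM in saline 1 to 5 and at 86.8, 93.5, 69.4 and 65.0 CPM in ethanol 1 to 4. The highest values were those of the older ethanol mice, ethanol 1 and 2, and the lowest those of ethanol 4 and saline 5. For Slc2a3 the values were 9.86, 5.34, 9.81, 11.5 and 6.73 CPM in saline and 7.22, 6.01, 8.93 and 7.40 CPM in ethanol libraries, all ethanol values lying inside the saline range.

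Lactate leaves and enters through monocarboxylate transporters. Slc16a3, encoding MCT4, a transporter of cells that export lactate, had 29.003 ± 3.85 TPM and Slc16a1, encoding the widespread MCT1, 21.9 ± 2.86 TPM. With Slc16a7 (MCT2) at 10.8 ± 0.973 TPM, their shares of the family were 46.9 ± 4.33%, 35.6 ± 4.96% and 17.5 ± 1.34%. Slc16a1 was above Slc16a3 in saline 4, with 44.1% against 38.9%, and the pair was closest in ethanol 2, with 41.2% against 42.1%. Slc16a7 had 49.5, 40.3, 40.8, 39.9 and 38.8 CPM in saline and 40.2, 40.9, 51.2 and 38.8 CPM in ethanol libraries, highest in ethanol 3. Bsg, which encodes the chaperone that MCT1 and MCT4 need at the cell surface, had 603 ± 54.9 TPM.

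Hexokinase, which traps glucose as glucose 6-phosphate, was present mainly as Hk3, the isozyme typical of myeloid cells. Hk3 made up 62.0 ± 2.46% of the family (SD, n = 9, range 59.3 to 66.3%), Hk2, the inducible isozyme that binds mitochondria, 23.9 ± 2.86% and Hk1, the isozyme of most brain cells, 13.7 ± 1.13%. Hk3 led in 9 of 9 libraries, and the share ranges of saline and ethanol mice overlapped for all 3 genes. In saline 1 to 5 Hk3 had 200.0, 216, 188, 192 and 179 CPM and in ethanol 1 to 4 194, 169.6, 190.2 and 209 CPM. Hk2 had 132, 102, 133, 146 and 132 CPM in saline and 134, 88.2, 138 and 148 CPM in ethanol libraries, with ethanol 2 lowest and saline 2 next. Hk1 was measured at 62.2, 65.0, 52.8, 55.6 and 59.4 CPM in saline and 59.7, 48.0, 55.9 and 50.9 CPM in ethanol mice, and again ethanol 2 was lowest.

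Hk2 is a textbook target of HIF-1, which binds the core ACGTG or GCGTG, so the promoters of Hk2 and of the more abundant Hk3 are shown from 250 bases before the RefSeq start up to it (GRCm38.p6, Hk2 at chr6:82774455-82774704, minus strand, Hk3 at chr13:55021386-55021635, minus strand). They read 5′ to 3′ on the strand of the gene, and capitals mark the cores on either strand.
Hk2: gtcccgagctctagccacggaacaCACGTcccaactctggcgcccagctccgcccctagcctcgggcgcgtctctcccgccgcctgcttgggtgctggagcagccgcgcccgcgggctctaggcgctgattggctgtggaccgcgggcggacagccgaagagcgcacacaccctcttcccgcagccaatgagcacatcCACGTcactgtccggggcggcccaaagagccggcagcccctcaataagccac
Hk3: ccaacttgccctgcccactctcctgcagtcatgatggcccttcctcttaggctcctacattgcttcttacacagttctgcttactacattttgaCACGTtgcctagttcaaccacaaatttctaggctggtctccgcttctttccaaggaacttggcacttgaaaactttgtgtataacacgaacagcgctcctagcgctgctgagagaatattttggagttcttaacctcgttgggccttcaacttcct
Hk2 held 2 cores in this stretch and Hk3 held 1.

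Gpi1, which encodes phosphoglucose isomerase, the enzyme at the branch between glycolysis and the pentose phosphate pathway, had 59.3 ± 3.60 TPM. It was measured at 72.6, 69.0, 65.4, 60.4 and 68.5 CPM in saline and 67.0, 72.0, 72.4 and 58.8 CPM in ethanol libraries. The lowest value was in ethanol 4 and the highest in saline 1, and the groups overlapped over nearly their whole range.

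Phosphofructokinase catalyses the committed step of glycolysis and exists as a liver, a muscle and a platelet type. The liver type Pfkl made up 87.9 ± 3.41% of the family, the muscle type Pfkm 11.5 ± 3.25% and the platelet type Pfkp 0.598 ± 0.283%. Pfkl was even over the mice, with 123, 120.2, 133, 131 and 121 CPM in saline and 123, 136, 128 and 108 CPM in ethanol libraries. Pfkm had 6.72, 14.1, 11.2, 11.9 and 14.6 CPM in saline and 15.6, 12.4, 8.76 and 17.3 CPM in ethanol libraries. Its lowest value was in saline 1 and its highest in ethanol 4. Pfkp was near the limit of the table at 0.784, 3.45, 1.67, 1.66 and 2.37 CPM in saline and 0.952, 2.98, 1.26 and 2.67 CPM in ethanol libraries, again lowest in saline 1.

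Saline 1 was also the library with the least neuronal and astrocyte RNA, and ethanol 4 the one with the most, as given above (2.69 and 56.0 CPM for the 9 neuronal markers, 5.43 and 181 CPM for the 10 astrocyte markers). In saline 1, Stmn2, Map2 and Gad1 of the neuronal list and Gja1, Atp1b2, Gjb6 and Sox9 of the astrocyte list were at 0. The aldolase isozyme gene Aldoc, known as an astrocyte marker and outside the 34, was at 2.13 CPM in saline 1 and at 32.1 to 78.9 CPM in the other libraries. Against the median of the other 8 libraries, saline 1 was lower by 0.96 for Pfkm and by 1.24 for Pfkp on the log2 scale, whereas Pfkl differed by -0.03. In ethanol 4 Pfkm differed by 0.51 and Pfkp by 0.65. In ethanol 1, with a neuronal sum of 21.7 CPM, Pfkm differed by 0.36 but Pfkp by -0.99. Neuronal sums ranged from 2.69 to 37.3 CPM in saline and from 21.7 to 56.0 CPM in ethanol libraries, and the part of other cells in the Pfkm values was not tested. In libraries of sorted cells, fewer cells of a type and less RNA per cell cannot be told apart.

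The PFKFB enzymes make and break down fructose 2,6-bisphosphate, the main activator of phosphofructokinase. Pfkfb4 had 73.1 ± 6.83 TPM and Pfkfb3, whose enzyme strongly favours synthesis, 65.4 ± 4.90 TPM, while Pfkfb2, the heart-type gene, had 5.34 ± 1.45 TPM. Shares of the family were 50.2 ± 2.58% for Pfkfb4 and 45.0 ± 2.88% for Pfkfb3, but the order turned without length scaling, where Pfkfb3 held 52.6% and Pfkfb4 42.7%. Pfkfb3 was measured at 137, 109, 100.5, 104 and 103 CPM in saline and 111, 119, 114 and 108 CPM in ethanol mice, with saline 1 above all others. Pfkfb4 had 93.1, 94.4, 82.7, 82.1 and 106 CPM in saline and 82.3, 95.5, 92.2 and 86.4 CPM in ethanol mice, and its highest value was in saline 5. Pfkfb2, with the overlap named above, had 7.34, 10.3, 11.1, 8.18 and 7.20 CPM in saline and 4.60, 9.82, 7.10 and 11.0 CPM in ethanol mice, the lowest of which was ethanol 1.

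**Figure D3:**
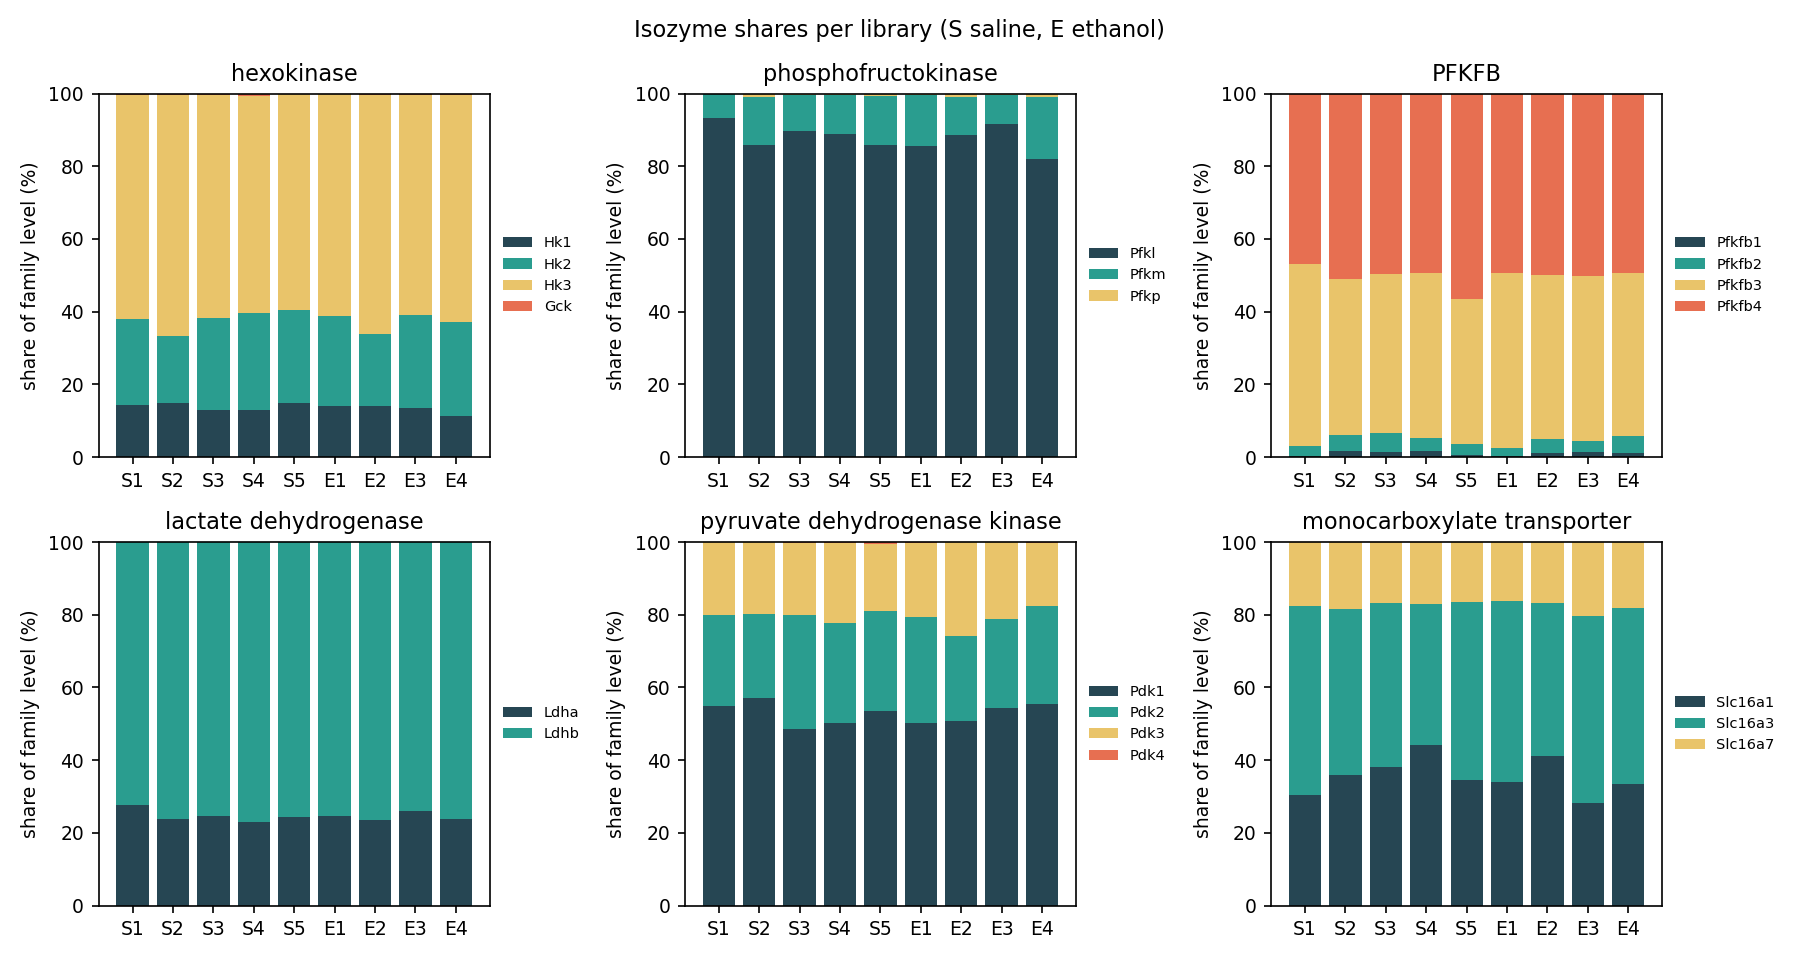
Share of each gene in the length-scaled level of its family (percent, stacked to 100) in the 5 saline libraries (S1 to S5) and 4 ethanol libraries (E1 to E4). Hk3, Pfkl, Ldhb and Pdk1 lead their families in every library, while Pfkfb3 leads over Pfkfb4 in S1 and Slc16a1 over Slc16a3 in S4.

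The later steps of glycolysis, from aldolase to pyruvate kinase, held 4 of the 7 most abundant genes of the set, Aldoa, Pkm, Eno1 and Gapdh. Aldoa was measured at 354, 293, 306, 327 and 321 CPM in saline and 315, 402, 328 and 280.2 CPM in ethanol libraries, so that ethanol 2 was highest and ethanol 4 lowest. Aldoa made up 93.2 ± 3.77% of the aldolase family, up to 99.7% in saline 1, where Aldoc was nearly missing. Eno1 made up 89.6 ± 1.04% of the enolases by the longest transcript, and Pgam1 79.6 ± 6.54% of the phosphoglycerate mutases. Of the pyruvate kinases only Pkm was counted, and the liver-type gene Pklr had 0 counts in all libraries. Tpi1 (triose phosphate isomerase) had 188 ± 16.2 TPM and Gapdh 229.6 ± 16.5 TPM. Pgam1 had 39.0 ± 3.72 TPM and Pgk1 37.6 ± 3.19 TPM, both low beside their neighbours in the pathway and both among the genes with much shared sequence.

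Lactate dehydrogenase is a tetramer of A and B subunits, the A subunit being known for favouring the making of lactate and the B subunit for favouring its use. Ldhb held 75.4 ± 1.46% of the family (SD, n = 9, range 72.3 to 77.1%), 75.3 ± 1.79% in saline mice (n = 5) and 75.5 ± 1.19% in ethanol mice (n = 4). The ranges of the groups overlapped. Ldhb was measured at 434, 435, 426, 481 and 456 CPM in saline and 479, 585, 450.2 and 436 CPM in ethanol libraries, and the value of ethanol 2 lay above the rest. Ldha had 231, 189, 194, 199 and 203 CPM in saline and 217, 249.6, 221 and 189 CPM in ethanol libraries, with ethanol 2 highest and saline 1 next. Without length scaling the share of Ldhb was 68.8%, and with merged exons 82.3%, so that Ldhb led by each length used.

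Ldha is among the best known targets of HIF-1 and Ldhb is not, and cores were counted in the promoters of the pair. Shown are the 250 bases before the RefSeq starts (GRCm38.p6, Ldha at chr7:46845554-46845803, plus strand, the first of its 2 starts in the table, Ldhb at chr6:142507958-142508207, minus strand), read 5′ to 3′ on the strand of the gene with ACGTG and GCGTG on either strand in capitals. CACGTG reads the same on both strands and so holds ACGTG on each.
Ldha: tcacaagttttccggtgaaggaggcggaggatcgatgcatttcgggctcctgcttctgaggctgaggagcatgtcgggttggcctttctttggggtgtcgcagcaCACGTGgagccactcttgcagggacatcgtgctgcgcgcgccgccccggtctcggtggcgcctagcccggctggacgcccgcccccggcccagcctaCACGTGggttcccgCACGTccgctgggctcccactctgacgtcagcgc
Ldhb: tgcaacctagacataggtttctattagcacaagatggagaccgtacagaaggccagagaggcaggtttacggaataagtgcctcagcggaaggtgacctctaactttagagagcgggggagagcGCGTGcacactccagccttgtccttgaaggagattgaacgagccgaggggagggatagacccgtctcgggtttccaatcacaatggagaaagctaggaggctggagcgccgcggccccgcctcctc
Ldha held 5 cores here and 7 in the full window that runs to 50 bases past the start, 5 of them ACGTG and 2 GCGTG. Ldhb held 1, a GCGTG. At the second Ldha start in the table the same stretch held 1 core, also a GCGTG, so the difference rests on the first start.

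Over the whole set, 33 of the 34 genes had promoter windows of 300 bases in RefSeq, 49 windows in all because some genes have several starts. ACGTG or GCGTG occurred in 39 of the 49 windows (79.6%), against 43.8% of 32851 windows of 27025 genes. For ACGTG alone the shares were 49% and 19.6%, for GCGTG alone 55.1% and 32.4%, and for CACGTG 14.3% and 7.15%. Windows of 1 gene can overlap, a short core occurs often by letters alone, and a match is a description and not a bound site. Both cores hold CG, and the windows of all genes were not matched to the set in base composition or expression. The part of these in the shares was not tested. Besides Ldha, the windows with the most cores were those of Hk1 and Slc16a1, with 5 each.

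The pyruvate dehydrogenase complex was represented by Pdhb (E1 beta subunit) with 78.8 ± 5.20 TPM, Pdha1 (E1 alpha subunit) with 47.8 ± 2.79 TPM and Dlat (the E2 acetyltransferase) with 28.8 ± 2.99 TPM. Pdha1 was measured at 46.9, 47.1, 48.8, 44.1 and 45.1 CPM in saline and 51.7, 51.2, 53.9 and 46.6 CPM in ethanol mice. Of the ethanol values 3 lay above every saline value, and that of ethanol 4 lay within the saline range. Dlat had 35.2, 37.2, 43.1, 42.4 and 40.7 CPM in saline and 49.7, 41.0, 41.5 and 40.3 CPM in ethanol mice, with ethanol 1 highest and saline 1 lowest. Pdhb was at 66.5, 63.2, 72.1, 65.5 and 61.6 CPM in saline and 65.4, 75.9, 63.4 and 65.5 CPM in ethanol mice, where ethanol 2 stood above the others.

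Of the kinases that switch the complex off, Pdk1, a HIF-1 target in textbooks, held 52.7 ± 2.93% of the family, Pdk2, the kinase found in most tissues, 26.5 ± 2.70% and Pdk3 20.6 ± 2.38%. Pdk4, the kinase of fasting and outside the 34, held 0.151%. Pdk1 was measured at 156, 166, 121, 141 and 146 CPM in saline and 122, 123, 147 and 151 CPM in ethanol libraries. Its lowest 3 values came from saline 3, ethanol 1 and ethanol 2, all aged 35 days, but saline 1, aged 36 days, was exceeded only by saline 2. Pdk2 had 30.8, 29.1, 33.8, 33.6 and 32.4 CPM in saline and 30.6, 24.9, 28.7 and 31.9 CPM in ethanol libraries, lowest in ethanol 2, and Pdk3 had 23.2, 23.5, 20.4, 25.6 and 20.7 CPM and 20.2, 25.6, 23.5 and 19.4 CPM.

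In the pentose phosphate pathway Taldo1 (transaldolase) led with 338 ± 22.7 TPM, followed by Pgd (6-phosphogluconate dehydrogenase) with 118 ± 14.8 TPM, Tkt (transketolase) with 111 ± 5.91 TPM and G6pdx (glucose 6-phosphate dehydrogenase, the entry enzyme) with 84.3 ± 3.21 TPM. Taldo1 was measured at 167, 158, 147, 169 and 152 CPM in saline and 169, 195, 166 and 151 CPM in ethanol libraries, highest in ethanol 2. G6pdx was 1 of the evenest genes of the set, from 74.5 to 87.4 CPM over the 9 libraries.

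Hif1a, encoding the oxygen-regulated subunit of HIF-1, whose protein is controlled mostly by breakdown and not by transcript level, had 128 ± 12.4 TPM. It was measured at 247, 213, 179, 184 and 225 CPM in saline and 219, 247, 227 and 198 CPM in ethanol libraries. Saline 1 and ethanol 2 shared the top and saline 3 and 4 the bottom, so the groups overlapped.

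The spread between mice was small for most of the set. The biological coefficient of variation, the spread between libraries beyond counting error as edgeR estimates it, had a median of 12.2% over the 34 genes and of 16.9% over all tested genes. It lay below the trend for genes of equal abundance for 29 of the 34 (85.3%, against 71.0% of all tested genes). Pdha1 at 0.101 and G6pdx at 0.103 were lowest, and Pfkp at 0.461, Pfkm at 0.256, Pfkfb2 at 0.256 and Slc2a3 at 0.244 highest.

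The comparison the series was made for, ethanol against saline, gave no call among these genes. With edgeR's quasi-likelihood test and Benjamini-Hochberg adjustment over all genes, 0 of the 34 passed an adjusted p of 0.05, where 0% of the 13067 genes tested did, and the smallest adjusted p was 0.963. At an unadjusted p under 0.05, edgeR counted 0 of the 34 against 386 of all genes (2.95%). DESeq2 and limma-voom also counted 0 of the 34 at either threshold. A count of 0 in 34 is near a share of 2.95% and cannot be read as a trait of the set. No gene of the set had groups that did not overlap, against 1.29% of all genes. The log2 fold changes of the set were above 0 for 18 genes and below for 16, with a median of 0.017, where the median over all genes was -0.00068 and 49.8% were above 0. Without ethanol 2 the median was -0.03 and 13 of the 34 were above 0.

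The size of a difference was bounded by the intervals. The 95% intervals stayed inside a 1.5-fold change in either direction for 30 of the 34 genes, against 59.4% of all genes, and within 2-fold for all 34. The exceptions at 1.5-fold were Pfkp, Pfkm, Pfkfb2 and Slc2a3, the genes with the widest spread and the lowest TPM of the set. Here all genes were not matched to the set in abundance, and 30 of the 34 lay above the 50th percentile of level. The median size of the log2 fold change was 0.076 in the set and 0.118 over all genes. In simulated counts with the depth and the spread of each gene, the test recovered 69% of genes with a log2 change of 1 and 84% with 2. The test could therefore miss changes of 2-fold and more. The simulated counts held no shift shared by many genes of 1 library, so recovery in these libraries can differ.

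Among the genes nearest to a difference, Pdha1 had a log2 fold change of 0.13 ± 0.08 (SE, 95% interval -0.04 to 0.30) in ethanol against saline mice. Ldhb had 0.13 ± 0.09 and Taldo1 0.10 ± 0.09, which without ethanol 2 were 0.02 and 0.03. Dlat had 0.12 ± 0.10. In the other direction were Hk1 with -0.14 ± 0.10, Pdk2 with -0.14 ± 0.10, Pdk1 with -0.10 ± 0.11 and Slc2a3 with -0.22 ± 0.23. The adjusted p was 0.963 for each of these 8 genes. Single libraries moved these values: Dlat had 0.05 without ethanol 1, Pdk2 -0.07 without ethanol 2, Pdk1 -0.05 without ethanol 1 and -0.16 without saline 3, and Slc2a3 -0.10 without saline 4 and -0.36 without saline 2.

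The leading genes of several steps had fold changes near 0. Hk3 had a log2 fold change of -0.03 ± 0.08, Pfkl of -0.02 ± 0.08, Aldoa of 0.05 ± 0.10 and Hif1a of 0.09 ± 0.11, with 95% intervals of -0.21 to 0.15, -0.20 to 0.16, -0.18 to 0.27 and -0.14 to 0.32. Slc2a1 had 0.13 ± 0.12 (interval -0.14 to 0.40), with 0.03 without ethanol 2 and 0.21 without ethanol 4. Hif1a had 0.03 without ethanol 2 and 0.16 without saline 1. Of the pentose phosphate genes besides Taldo1, G6pdx had an interval of -0.17 to 0.17.

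**Figure D4:**
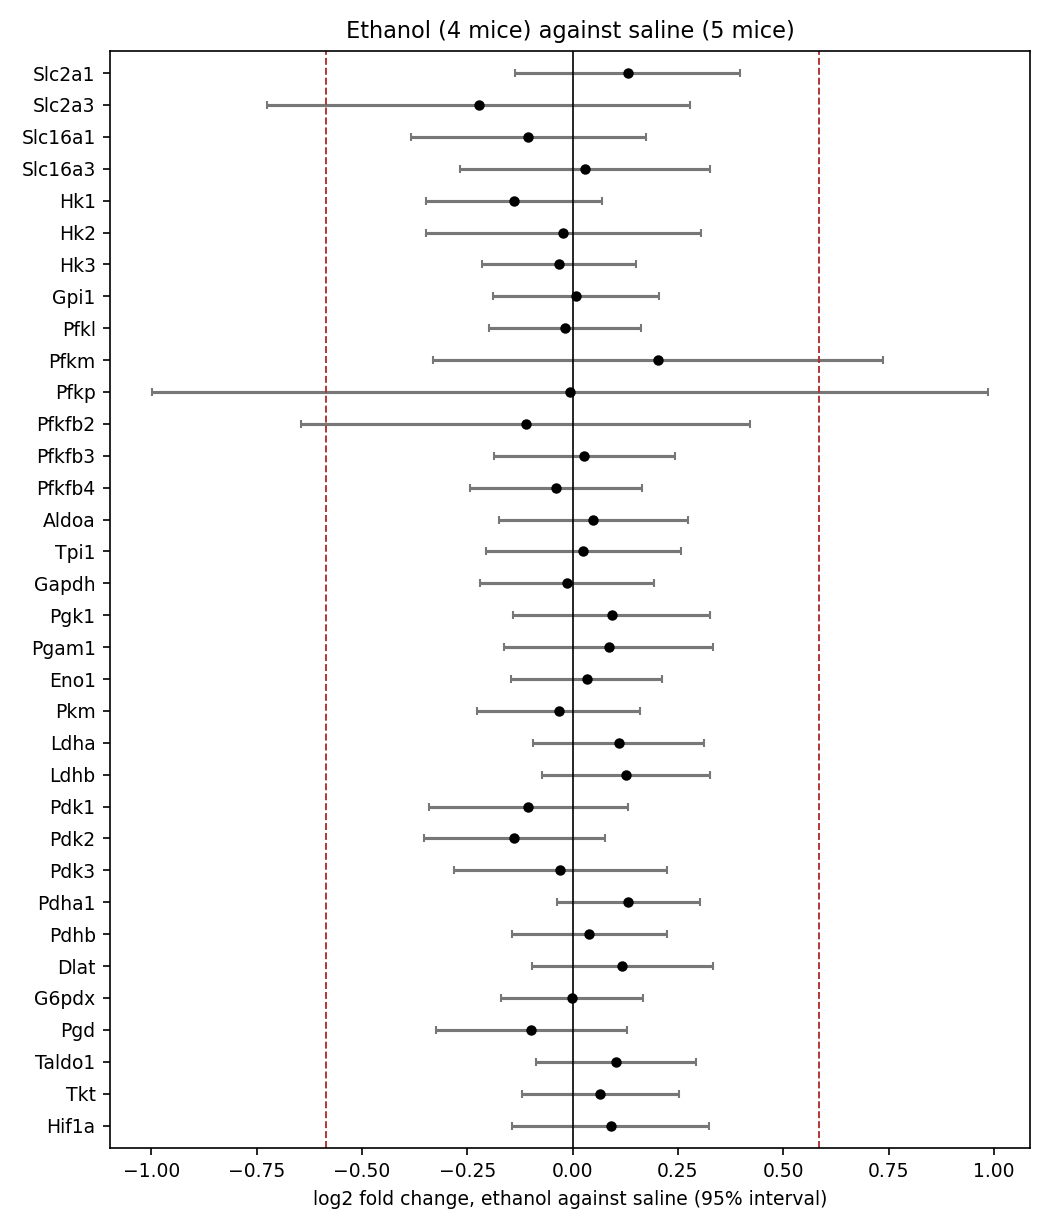
Log2 fold change of ethanol (4 mice) against saline (5 mice) for the 34 genes, with 95% intervals from edgeR's quasi-likelihood test. Dashed lines mark 1.5-fold. Every interval includes 0, and those of Pfkp, Pfkm, Pfkfb2 and Slc2a3 cross a dashed line.

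Both treatments had mice of 29 or 30 days (5 mice) and of 35 or 36 days (4 mice). Older against younger mice, with ethanol as a covariate, gave 0 of the 34 genes past the adjusted threshold (0% of all genes) and 0 with an unadjusted p under 0.05 (2.85% of all genes) in edgeR. No gene of the set had age groups that did not overlap, against 1.24% of all genes. Fold changes were above 0 for 23 of the 34, where 45.2% of all genes were, with medians of 0.062 and -0.02 on the log2 scale. The median of the set was 0.024 to 0.107 leaving out 1 library each, lowest without ethanol 2, and -0.0055 without saline 1 and ethanol 2. Age went nearly together with the suffix of the library names, which was 1-5-16 for 3 of the 4 older mice and 1-6-16 for 4 of the 5 younger ones. With the suffix in the fit, where saline 1 alone has a suffix of its own, the median of the set was -0.014. Slc2a1 had 0.21 ± 0.11 (SE, 95% interval -0.04 to 0.46) and Pdk1 -0.20 ± 0.10 (interval -0.41 to 0.01), both with an adjusted p of 0.973. With the suffix in the fit Slc2a1 had -0.11. With limma-voom Pdk1 had -0.24 and was the 1 gene of the set with an unadjusted p under 0.05 (0.0192, adjusted 0.994), and DESeq2 counted 0. Without saline 1 Pdk1 had -0.30 in edgeR (unadjusted p 0.00709, adjusted p 0.952), and without saline 1 and ethanol 2 -0.31 (unadjusted p 0.00363, adjusted p 0.789). In 8 of the 18 alternatives for age at least 1 gene of the set had an unadjusted p under 0.05, 6 genes in all. These were Pdk1, Slc2a1, Slc16a1, Ldha, Pfkm and Pfkp. The alternatives share most of their libraries, and 2.85% of all genes had such a p in the main fit. These counts therefore cannot be read as a trait of the set.

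Whether the ethanol difference itself differed between the age groups was tested with an interaction term. It was past the adjusted threshold for 0 of the 34 genes (0% of 13893 genes) and had an unadjusted p under 0.05 for 0 of the 34 (3.21%), and DESeq2 counted 0 at both thresholds. In 8 of the 12 alternatives at least 1 gene of the set had an unadjusted p under 0.05, 7 genes in all (Pfkm, Pgam1, Hk2, Ldhb, Slc2a1, Slc2a3 and Pfkfb2). Those alternatives share most of their libraries, and 3.21% of all genes had such a p in the main fit, so the counts cannot be read as a trait of the set. Leaving out an older mouse or an ethanol mouse also left 1 library in a group, assumed to vary like the others. In the main fit the smallest p in the set belonged to Pgam1, with 0.45 ± 0.21 on the log2 scale (95% interval -0.02 to 0.91, edgeR adjusted p 0.974). Pgam1 had 23.4, 22.7, 21.4, 26.0 and 26.2 CPM in saline and 27.4, 28.4, 24.7 and 21.1 CPM in ethanol libraries. In the older mice the ethanol values were 27.4 and 28.4 against 23.4 and 21.4 CPM, and in the younger mice 24.7 and 21.1 against 22.7, 26.0 and 26.2 CPM. For this test simulated data gave a recovery of 11% for a log2 difference of 1 and of 62% for 2, so that it could miss large ones too.

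Single libraries stood apart for many genes of the set. Ethanol 2 was the highest library for 14 of the 34 genes (41.2%, against 22.7% of all genes) and the lowest for 5 (14.7%, against 25.6%). Ethanol 4 was the lowest library for 10 (29.4%, against 8.55% of all genes) and saline 3 for 8 (23.5%, against 9.31%). The median difference from the median of the other 8 libraries was 0.15 in ethanol 2, -0.11 in ethanol 4 and -0.09 in saline 3 on the log2 scale over the set, and 0.0083, 0.0023 and 0.00043 over all genes. The differences of ethanol 2 and ethanol 4 ran against each other within 1 group.

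The values of ethanol 2 were also split by transcript length. Ethanol 2 was above the median of the others for 7 of the 7 genes of the set with transcripts up to 2000 nt, for 12 of 16 between 2000 and 4000 nt and for 5 of 11 beyond. Over all tested genes the shares were 65.8%, 62.0% and 29.4%. At the short end Ldhb was higher by 0.40 and Aldoa by 0.34 on the log2 scale, and at the long end Hk2 differed by -0.60 and Slc2a3 by -0.43. Other genes departed from that order. Among the longest Pfkfb2 had 0.34, Slc16a1 0.28 and the scarce Pfkp 0.81, so that the median of the 11 genes beyond 4000 nt was -0.0029. Of middle length, Slc2a1 had 0.43 and Pgd and Pdk2 had -0.33 each. The part of transcript length in the values of ethanol 2 was not tested.

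**Figure D5:**
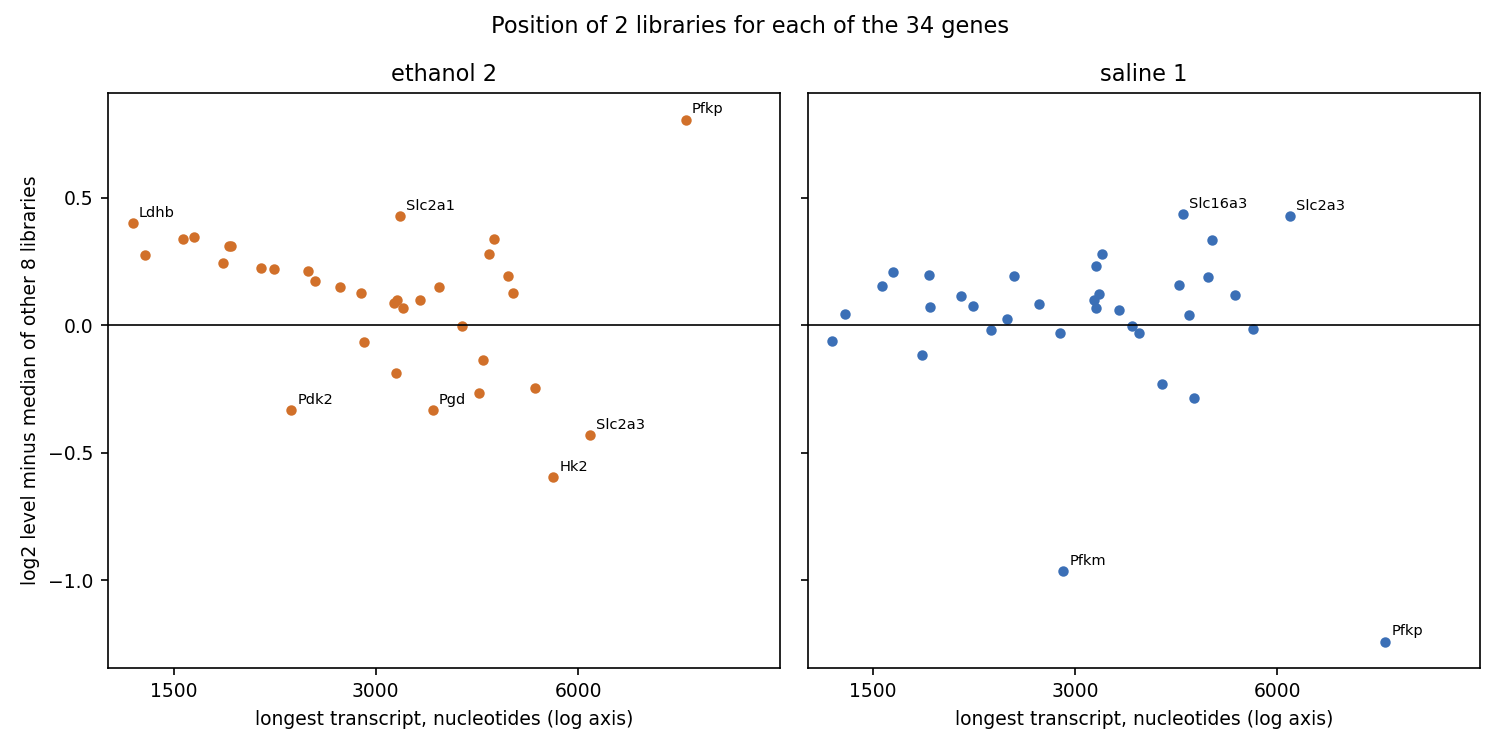
Difference of ethanol 2 (left) and saline 1 (right) from the median of the other 8 libraries, on the log2 scale (vertical axis), for each of the 34 genes against the length of its longest transcript in nucleotides (log axis). Each point is a gene, and those farthest from 0 are named. In ethanol 2 the 7 genes up to 2000 nt all lie above 0, and in saline 1 Pfkm and Pfkp lie lowest.

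Other genes of the same pathways were read from a list of 48 isozymes, transporters, regulators and genes of gluconeogenesis and glycogen, 37 of which passed the count filter. For ethanol 0 of the 37 passed the adjusted threshold (0% of all genes) and 2 had an unadjusted p under 0.05 (2.95% of all genes). Fold changes were above 0 for 21 and below for 16, with a median of 0.0077 on the log2 scale. Those 2 were Eno2, the neuronal enolase, with 0.77 ± 0.31 and Pdhx, a structural part of the pyruvate dehydrogenase complex, with 0.21 ± 0.09, both with an adjusted p of 0.963 in edgeR. Eno2 had 1.18, 1.93, 2.35, 2.65 and 2.13 CPM in saline and 2.54, 3.27, 2.69 and 5.43 CPM in ethanol libraries, lowest in saline 1 and highest in ethanol 4, the libraries with the lowest and the highest sum of neuronal markers, whose part in this was not tested. Pdhx had 28.7, 33.6, 34.9, 34.8 and 32.7 CPM in saline and 40.2, 40.1, 35.04 and 37.0 CPM in ethanol libraries, with ethanol 1 and 2 highest and saline 1 lowest.

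On the lower side of that list were Pgam2, the muscle-type phosphoglycerate mutase, with -0.63 ± 0.33 and Pdpr, the regulatory subunit of pyruvate dehydrogenase phosphatase, with -0.26 ± 0.20. Pgam2 had 3.02, 3.20, 4.81, 3.59 and 3.13 CPM in saline and 2.94, 1.04, 3.21 and 2.07 CPM in ethanol libraries, and Pdpr 43.7, 32.2, 35.6, 36.1 and 36.2 CPM and 37.0, 16.7, 34.6 and 34.7 CPM. In both the lowest value was that of ethanol 2. Slc2a5, the abundant fructose transporter gene, had 0.19 ± 0.10 (95% interval -0.03 to 0.41), with 1172, 1012, 964, 919 and 899 CPM in saline and 1055, 1202, 1288 and 982 CPM in ethanol libraries.

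Another list held 21 genes of oxygen sensing and textbook targets of HIF-1 outside glycolysis, of which 18 were tested. For ethanol 0 of the 18 passed either threshold in edgeR (0% and 2.95% of all genes), with 11 above 0, 7 below and a median of 0.043. Vhl, which marks HIF alpha subunits for breakdown, stood at 0.17 ± 0.08 on the log2 scale (interval -0.01 to 0.35) and the prolyl hydroxylase gene Egln2 at 0.07 ± 0.08. Vhl had 149.8, 132, 143, 145 and 148 CPM in saline and 157, 185, 159.8 and 145 CPM in ethanol libraries, highest in ethanol 2, and the groups overlapped. Egln2 had 44.0, 51.7, 49.1, 52.7 and 47.6 CPM in saline and 51.9, 52.7, 51.5 and 49.5 CPM in ethanol libraries, lowest in saline 1. Arnt, the partner subunit of Hif1a, had -0.25 ± 0.13, with 112, 101, 116, 119.5 and 111 CPM in saline and 111, 65.6, 101 and 98.9 CPM in ethanol libraries, where ethanol 2 was lowest. P4ha2, a collagen prolyl hydroxylase gene, had -0.90 ± 0.58, with 1.12, 0.586, 0.785, 0.8292 and 1.56 CPM in saline and 0.0793, 0.290, 0.515 and 1.14 CPM in ethanol libraries, so that it was scarce in all of them.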

How the data were processed

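RNA-seq counts of 9 libraries were used, 5 from saline and 4 from ethanol mice, grouped by the treatment in the labels. The authors deposited 1 table of raw counts per gene symbol with no normalization. Per the submitters' processing notes, Trimmomatic 0.32, STAR 2.4.2a, HTSeq 0.6.1 and the build GRCm38.p4 were used. Not given in the sources used here are settings, annotation release, read length, use of strand and the treatment of reads with several matches.

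Counts were kept by filterByExpr (minimum count 10, minimum total 15), scaled by TMM and tested with edgeR 4.0.16 (quasi-likelihood F test, robust, R 4.3.3) with Benjamini-Hochberg adjustment over all genes at 0.05. Ethanol was tested over all libraries, age with ethanol as a covariate, and their interaction in a fit with both terms. Standard errors and 95% intervals were derived from the F statistics. Log2 differences of a library used CPM with 0.1 added. Tests were run on simulated data first. P-values measure the spread between these libraries.

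Lengths and coordinates came from GENCODE M21 transcripts by symbol (41996 of 45664 symbols, all 34 genes), and shared sequence from the same transcripts with stretches of 50 and 100 nt. Promoters came from RefSeq (GRCm38.p6).

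The genes, lists and tests were chosen with earlier results of these data known. Values in every library are given for the most abundant gene of each role, the 4 smallest p-values in each direction for ethanol, the 2 smallest for age, the smallest for the interaction and the isozyme families, and from the other lists for the 2 smallest p-values in each direction and isozymes above 10% of a family. Others were chosen after their values were seen, among them Aldoc, Bsg, Pdk4, Pklr and the named copies.

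Alternatives were DESeq2 1.42.0, limma-voom (limma 3.58.1) with sample weights, RLE size factors, no count filter, a stricter one (4 or more libraries with 5 CPM or more), leaving out each library, leaving out saline 1 with ethanol 2, library-name suffix, age or replicate number in the fit, each age group alone, no ethanol term, and other lengths for the shares. The unique part of the transcript was added as a length after the data were seen.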

Additional observations from a re-analysis of the deposited data

Results flagged for a closer look

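In 4 of the 68 groups tested (34 genes in 2 groups, 5.88%) 1 library lay apart from the others of its group by Dixon's criterion, where chance gives about 1 in 20. Pfkfb3, the gene of the fructose 2,6-bisphosphate enzyme that favours synthesis, was at 136.9 CPM in saline 1 against 100.5 to 109.2 CPM in the other 4 saline libraries. Pdhb, the E1 beta subunit of pyruvate dehydrogenase, was at 75.94 CPM in ethanol 2 against 63.44 to 65.5 CPM in the other ethanol libraries. Dlat, the E2 subunit of the same complex, was at 49.74 CPM in ethanol 1 against 40.28 to 41.51 CPM. Tkt, the transketolase gene, was at 122.3 CPM in ethanol 4 against 132.2 to 134.2 CPM, below all 3 others. Saline 1, which stood apart in the neuronal and astrocyte markers, and ethanol 2, which stood apart over all genes, gave 1 of these values each.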

How the results depend on the processing

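For ethanol, 0 of the 34 genes passed the adjusted threshold or an unadjusted p of 0.05 under any of the 20 alternatives (adjusted p from 0.793 to 1), and 0 passed the adjusted threshold under the 18 alternatives for age and the 12 for the interaction. In the main fit 0% and 2.95% of all genes passed these 2 thresholds for ethanol. A count of 0 in 34 is near those shares and cannot be read as steadiness of the set. Leaving out 1 library each, the median fold change of the set for ethanol ranged from -0.028 to 0.052 on the log2 scale. Over all genes the counts called were less steady. For age they were 97 with no count filter and 3 without saline 1 and ethanol 2. For the interaction they were 1 with DESeq2, 53 with no count filter and 0 to 825 when leaving out 1 library each, 825 being without ethanol 1, where the older ethanol group is 1 library assumed to vary like the others. The older ethanol library left in that fit was ethanol 2, the highest of the 9 libraries for 22.7% of all genes and the lowest for 25.6%. The part of ethanol 2 in that count was not tested.

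Small fold changes turned sign. In the younger mice alone ethanol gave -0.089 for Slc2a1, 0.027 for Hk3, -0.013 for Gpi1, -0.047 for Aldoa, -0.048 for Ldhb, -0.015 for Taldo1 and 0.062 for Slc2a3, and in the older mice alone 0.019 for Pfkl and 0.016 for Pfkfb4. With limma-voom Hk3 had 0.018, Aldoa -0.014 and Pdhb -0.0090, and without saline 1 and ethanol 2 they had 0.029, -0.021 and -0.018. With the library-name suffix as covariate, Slc2a1 had -0.11 for age. Leaving out 1 library each gave -0.079 to 0.017 for Hk3, -0.029 to 0.069 for Gpi1, -0.072 to 0.041 for Pfkl, -0.078 to 0.018 for Pfkfb4, -0.062 to 0.12 for Aldoa and -0.025 to 0.075 for Pdhb.

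Deviations of same-numbered saline and ethanol libraries from their group means correlated with r of -0.016, -0.010, -0.054 and -0.014 over genes. Libraries with different numbers were not compared, so these values cannot settle whether the replicate numbers pair the mice. With the replicate number as a block, 0 genes were called for ethanol and for age (240 and 801 with an unadjusted p under 0.05), 0 of the 34 among them, and Pfkfb4 had 0.018 for ethanol.

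Shares moved with the length used. With merged exons, no length and, where it moved, the unique part, Hk3 held 64.9% and 51.1% of its family, Pfkfb4 53.2% and 42.7%, Eno1 78.7%, 91.4% and 96.9%, Ldhb 82.3%, 68.8% and 77.8%, Pdk1 49.4% and 72.5%, and Slc16a3 42.5% and 36.7%. Pfkl held 82.8% with merged exons, Aldoa 88.6% with no length, and Pgam1 89.1% with no length and 86.8% by the unique part. Leaving out 1 library each, the mean share was 61.4 to 62.3% for Hk3, 75.2 to 75.8% for Ldhb and 77.9 to 81.1% for Pgam1. Leaving out 1 of 9 libraries moves a mean by less than the SD in any case, so these ranges do not test how steady the shares are. Depth limits Pfkp most, and genes with much shared sequence cannot be placed exactly among the others.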

Other observations

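Within the list of oxygen-sensing genes and HIF-1 targets, 2 genes chosen after their values were seen had a wide range over the libraries. Ddit4, a stress-induced inhibitor of mTORC1 signalling, had 9.47, 2.93, 122, 43.9 and 29.5 CPM in saline 1 to 5 and 116, 14.0, 23.8 and 24.2 CPM in ethanol 1 to 4, so that the highest value of each group was near the other and the lowest was in saline 2. Egln1, the main prolyl hydroxylase that marks Hif1a protein in normal oxygen, had 14.1 CPM in ethanol 2 and 49.7 to 73.8 CPM in the other 8 libraries.

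P4ha1, a collagen prolyl hydroxylase gene and HIF-1 target chosen in the same way, was among the abundant genes of that list with 308 ± 29.3 TPM (SD, n = 9), close to Ldha.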
